A study of Mus musculus with 13 samples.

Results

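The 4 Hox clusters were examined in mouse embryonic fibroblasts by CUT&RUN, an assay in which an antibody-tethered nuclease releases the chromatin it is bound to. The members are all peaks of the 13 deposited lists that touch 1 of 4 fixed windows of GRCm39. The HoxA window was chromosome 6 at 52100000 to 52270000, and the HoxB window chromosome 11 at 96060000 to 96290000. The HoxC window was chromosome 15 at 102800000 to 102970000, and the HoxD window chromosome 2 at 74470000 to 74620000. Together they span 0.720 Mb and held 81 of 178951 peaks, of which 55 were H3K27me3 peaks, 25 HA peaks and 1 an IgG peak. The windows are meant to hold the 38 listed Hox genes, 10 in HoxA, 10 in HoxB, 9 in HoxC and 9 in HoxD.

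Hox genes encode homeodomain transcription factors that give cells their position along the body and limb axes. Within a cluster, genes at the anterior end (low numbers) act towards the head and genes at the posterior end (high numbers) towards the tail or the tips of the limbs. Polycomb repressive complex 2 places trimethylation on lysine 27 of histone H3 (H3K27me3) over Hox genes that a cell keeps silent, and Hox clusters are a classic site of this mark. Fibroblasts keep a record of their origin in the body in the Hox genes they leave active.

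All cells carried the Pax7-CreERT2, Rosa26-LSL-tdTomato and CAG-rtTA3 alleles, with the doxycycline-responsive activator rtTA3 under the CAG promoter. They had also received a lentivirus with HA-tagged mouse Myf6 under a doxycycline-responsive promoter. Myf6 is a basic helix-loop-helix factor of the myogenic family, and the HA tag is its handle for the antibody. Cells spent 24 h in iMPC medium, a serum-containing medium with bFGF. A first group got no doxycycline, and a second (+Myf6) got it at 2 µg/mL. A further group, +Myf6+F/R/C, received in addition Forskolin at 5 µM, which raises cyclic AMP, RepSox at 5 µM, an inhibitor of TGF-β receptor signalling, and CHIR99021 at 3 µM, an inhibitor of GSK3. For each group there were 2 libraries with the HA antibody and 2 with IgG. A single H3K27me3 library, the assay's positive control, came from the +Myf6+F/R/C group, so no value of the mark has a replicate, and the mark was not measured in the other treatments. Its library name shares a prefix with replicate 2 of that treatment. Whether the replicates were separate cultures is not stated in the labels, so their spread may be technical.

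Depth, recovered from the lists as mean fragments per 10 kb, was 54.3 in the H3K27me3 library and ranged from 30.6 to 61.9 over the 4 induced HA libraries. The uninduced HA libraries had 23.7 and 30.6, and the 6 IgG libraries 8.25 to 22.7. Fold enrichment, a ratio to the local background, and the −log10 q are the authors'. A deeper library can call weaker peaks.

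RefSeq's promoter table (build GRCm38.p6, 250 bases before to 50 after a gene's start) held 24 promoters of 22 of the 38 genes. HoxB had only Hoxb1, Hoxb4 and Hoxb8 there and HoxC only Hoxc4, so the promoter values mostly describe HoxA and HoxD. That table and the RefSeq gene table are of another build than the peaks, so no peak was assigned to a gene, and the tables served only for gene order and promoter sequence. Polycomb complexes in mammals are found at CpG-rich DNA, and bHLH factors bind E-boxes. Both features were therefore counted in these promoters. The ratio of observed to expected CpG had a median of 0.626 in the Hox promoters, from 0.257 to 1.02, and 0.384 in all 32851 promoters of the table. It reached 0.6 in 12 of the 24 Hox promoters (50.0%) and in 35.8% of all promoters. The ratio did not follow position in the cluster in a simple way. The highest, 1.02, was at Hoxa5 and the lowest, 0.257, at 1 of the 2 Hoxd11 promoters, while anterior Hoxd1 had 0.805 and Hoxa9 0.280. To show a CpG-rich and a CpG-poor promoter, those of Hoxa13, Hoxd13 and Hoxd4, with 35, 31 and 3 CpG in the 250 bases before the start, are given 5′ to 3′ on the gene's own strand, minus for Hoxa13 and plus for the others, with CG in capitals.
Hoxa13: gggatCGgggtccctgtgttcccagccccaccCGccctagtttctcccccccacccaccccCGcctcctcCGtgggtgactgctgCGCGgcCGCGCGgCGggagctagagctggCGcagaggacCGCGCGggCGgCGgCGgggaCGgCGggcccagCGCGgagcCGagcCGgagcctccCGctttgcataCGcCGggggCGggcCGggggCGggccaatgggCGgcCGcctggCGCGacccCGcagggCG
Hoxd13: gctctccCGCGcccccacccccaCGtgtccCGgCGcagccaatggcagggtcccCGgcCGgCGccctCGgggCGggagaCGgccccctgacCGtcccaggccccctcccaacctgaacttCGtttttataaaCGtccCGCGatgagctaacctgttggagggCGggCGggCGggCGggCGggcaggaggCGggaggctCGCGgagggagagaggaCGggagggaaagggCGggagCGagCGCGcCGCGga
Hoxd4: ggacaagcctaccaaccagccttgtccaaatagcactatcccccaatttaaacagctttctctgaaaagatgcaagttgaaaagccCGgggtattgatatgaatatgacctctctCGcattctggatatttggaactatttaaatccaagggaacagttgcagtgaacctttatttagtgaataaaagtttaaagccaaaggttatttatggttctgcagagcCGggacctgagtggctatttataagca

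E-box shares in the Hox promoters were close to those of all promoters. The general E-box CANNTG, which reads the same class of sites on both strands, was in 17 of 24 Hox promoters (70.8%) and 72.3% of all. CAGCTG, a form of CANNTG that myogenic factors favour and that is its own reverse complement, was in 4 of 24 (16.7%) and 16.3% of all. These 4 belong to Hoxa3, Hoxa5, Hoxa6 and Hoxa11. A match is only a description of these letters. The stretches that hold CAGCTG before the start of the gene, minus strand in each, are shown with it in capitals.
Hoxa3: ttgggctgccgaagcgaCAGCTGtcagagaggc
Hoxa5: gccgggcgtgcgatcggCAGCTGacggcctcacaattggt
Hoxa6: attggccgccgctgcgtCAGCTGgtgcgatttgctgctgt

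By peak number H3K27me3 was denser in all 4 clusters than in the rest of the genome, though HoxB and HoxC did not exceed all stretches beside them. The density of the mark was highest at the posterior ends of HoxA and HoxD. The windows held 55 H3K27me3 peaks, or 76.4 per Mb, against 12.4 per Mb in the rest of the genome, a ratio of 6.16. Peaks covered 5.10% of the windows and 0.993% of the rest, which is 5.14 times as much. HoxA had 22 peaks over 7.41% of its window, HoxD 11 over 5.66%, HoxB 12 over 3.98% and HoxC 10 over 3.84%. The median width was 434 bp in the clusters and 551 bp elsewhere. With 1 library these differences have no replicate check and no test.

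A second measure came from the background that each summit was set against, taken as the number of fragments in the surrounding 10 kb. It is given here as a multiple of the library's mean. The width of 10 kb was assumed, because the sources used here do not give the caller's window. The lowest background was taken as the mean, so lower values cannot appear, and 27.8% of the library's peaks stood at that floor. This multiple had a median of 11.2 at the H3K27me3 peaks of the clusters and 2.12 at those elsewhere. At 30 of 55 cluster peaks (54.5%) the 10 kb held at least 10 times the mean, against 20.7% of peaks elsewhere, a threshold chosen after the values were seen. The count was 17 in HoxA, 5 in HoxB, 0 in HoxC and 8 in HoxD. With a threshold of 5 times it was 20, 8, 3 and 9, and with 20 times 15, 0, 0 and 7. The counts of HoxB and HoxC thus depend on the threshold. Of the 330 H3K27me3 peaks in the top hundredth of the genome by this measure, 18 lay in the Hox windows, 11 in HoxA and 7 in HoxD. Summits less than 10 kb apart share fragments in this measure, so counts of such peaks are not counts of separate observations. HoxB reached at most 15.9 times the mean and HoxC 9.17.

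**Figure D1:**
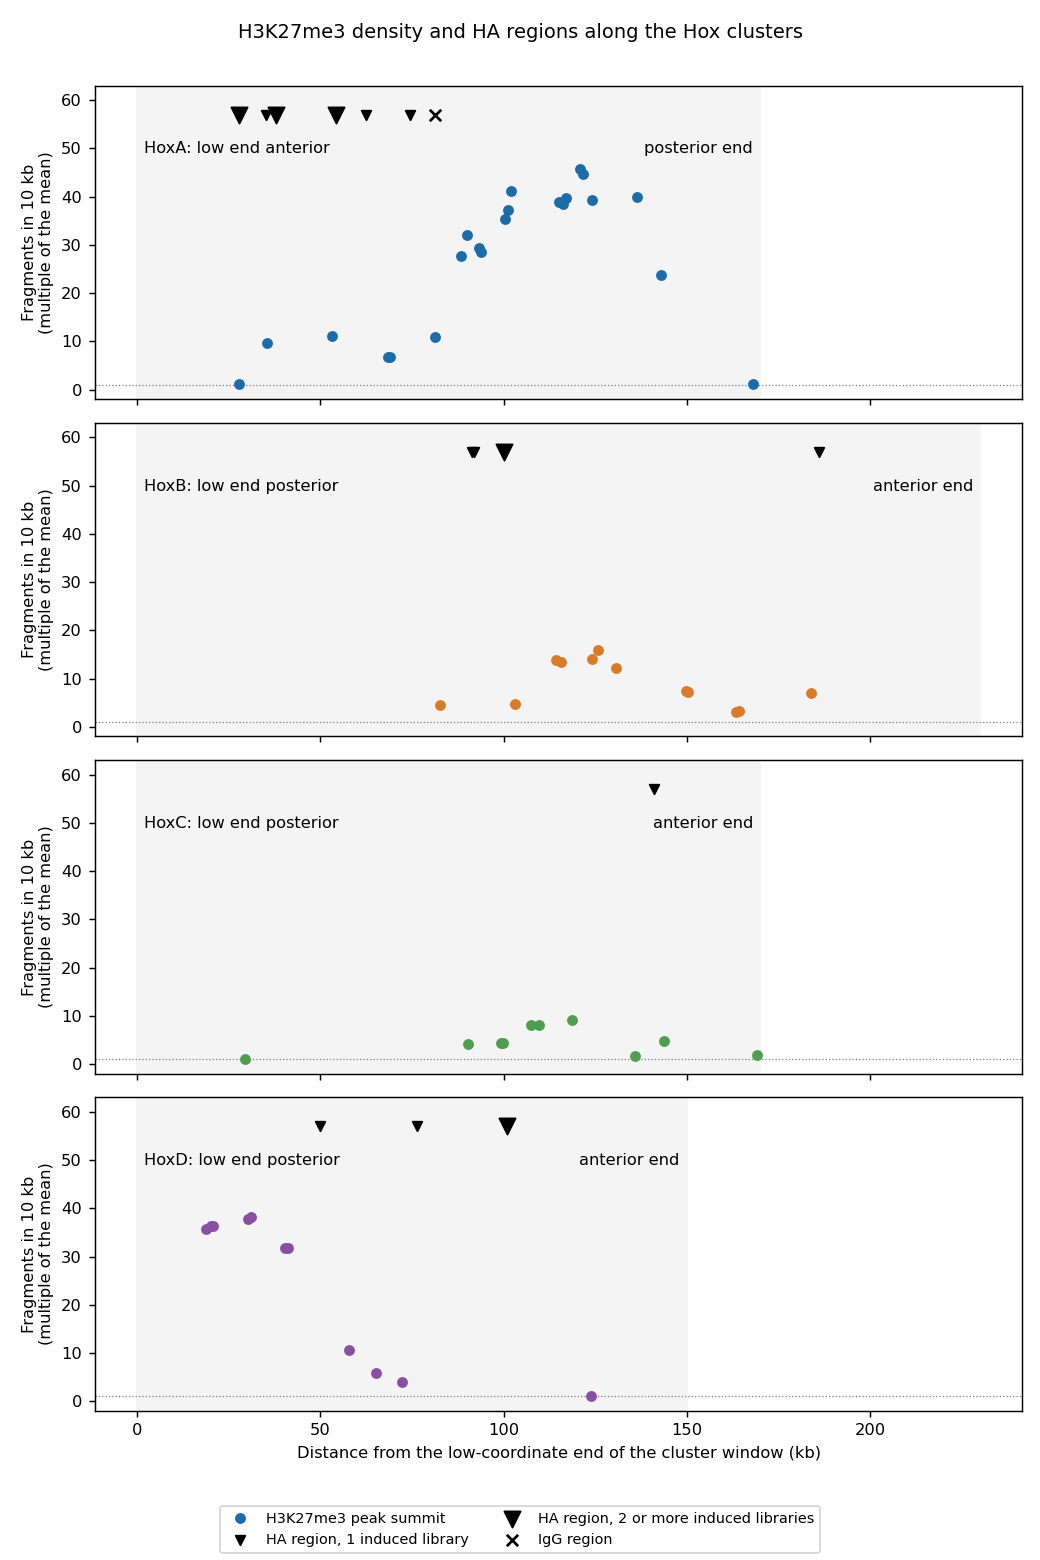
Number of H3K27me3 fragments in the 10 kb around each H3K27me3 summit (points, as a multiple of the library mean) against distance from the low-coordinate end of each cluster window in kb; triangles mark HA regions of induced cells, the cross the IgG region, and grey the window. HoxA climbs towards its posterior end to 45.7 times the mean before a lone last peak at 1.18, HoxD falls from its posterior end, and HoxB and HoxC stay under 16.

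Along HoxA the density rose from the anterior towards the posterior end. By gene order in RefSeq, Hoxa2 lies at the low-coordinate end of the HoxA genes and Hoxa13 at the high end. In the first 56.7 kb of the window 3 peaks stood at 1.23 to 11.2 times the mean, from there to 113 kb 10 peaks at 6.66 to 41.2 times, and beyond that 9 peaks at 1.18 to 45.7 times, with a median of 39.2. The last of these 9, at 52267918 to 52268153, stood alone with 1.18 times the mean. Between neighbouring summits at 81.3 and 88.5 kb from the window's start it went from 11.0 to 27.8 times. The densest 10 kb, around the peak at 52220828 to 52221015, held 2484 fragments. The widest peaks of HoxA were at 52235614 to 52237171 (1558 bp), 52188816 to 52190289 (1474 bp) and 52135134 to 52136560 (1427 bp).

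HoxD showed the same polarity, mirrored on the chromosome. There Hoxd13 is at the low end of the genes and Hoxd1 at the high end. The 7 peaks of the first 50.0 kb stood at 31.8 to 38.3 times the mean, and the next 3, up to 100.0 kb, at 3.98 to 10.5 times. The last peak stood at 1.00 times, the floor of this measure. The widest peaks were at 74534802 to 74536431 (1630 bp), 74499093 to 74500579 (1487 bp) and 74527872 to 74529190 (1319 bp).

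HoxB and HoxC carried a lower signal. In HoxB, where Hoxb13 is at the low end and Hoxb1 at the high end, the first 76.7 kb of the window held no peak, the next stretch to 153 kb 9 peaks at 4.44 to 15.9 times the mean and the remainder 3 at 3.15 to 6.94 times. Its widest peaks were at 96183584 to 96185402 (1819 bp), 96242771 to 96244521 (1751 bp) and 96142392 to 96143691 (1300 bp). In HoxC, with Hoxc13 at the low end and Hoxc4 at the high end, the first 56.7 kb held 1 peak at 1.00 times, the next stretch to 113 kb 5 at 4.20 to 8.17 times and the remainder 4 at 1.58 to 9.17 times. Its widest peaks were at 102943061 to 102944413 (1353 bp), 102917965 to 102919202 (1238 bp) and 102907207 to 102908323 (1117 bp).

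In each cluster the peak with the highest fold lay outside the densest 10 kb. In HoxA it was the peak at 52168938 to 52169549 (fold 7.64, 53 fragments at the summit, 6.77 times the mean). In HoxB it was 96162535 to 96163807 (fold 6.55, 33 fragments, 4.68 times), in HoxC 102935665 to 102935968 (fold 5.79, 13 fragments, 1.58 times) and in HoxD 74534802 to 74536431 (fold 4.65, 28 fragments, 5.84 times).

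Fold enrichment was low where density was highest, and the density is itself the background of the fold. In the rest of the genome the median fold rose from 4.75 at 1.0 to 1.5 times the mean to 7.87 at 3 to 5 times, and then fell. The median fold of the cluster peaks was 3.00, against 5.32 elsewhere, while their median summit pileup was 37 fragments against 18. Where the 10 kb held 30 to 50 times the mean, the 18 cluster peaks had a median fold of 2.01 and the 327 peaks elsewhere 2.45. At 5 to 10 times the mean, the 10 cluster peaks had a median fold of 4.41 and the 5349 elsewhere 7.46. Near the mean, at 1.0 to 1.5 times, the order was the other way, 5.78 for 4 cluster peaks and 4.75 elsewhere. The call itself compares a summit with its own surroundings. At the mean background a pileup of 5 fragments was enough for a peak in this library, whereas at the densest peak of HoxA, where the summit had 76 fragments, at least 64 were needed.

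**Figure D2:**
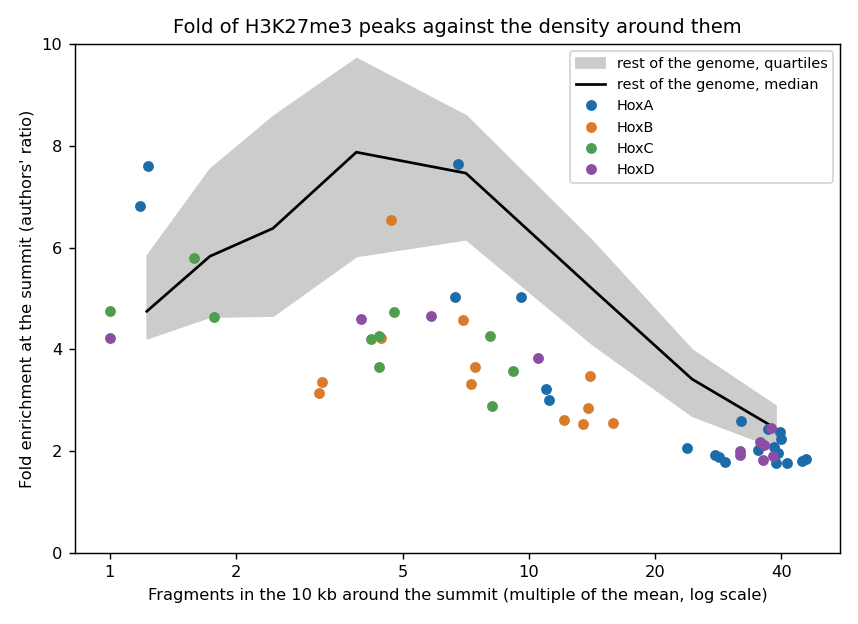
Fold enrichment of each H3K27me3 peak of the Hox clusters (points, the authors' ratio) against fragments in the surrounding 10 kb as a multiple of the mean (log scale); the line and band are the median and quartiles of peaks in the rest of the genome. Cluster peaks at 30 to 50 times the mean have a median fold of 2.01, and most cluster peaks between 3 and 30 times lie below the band.

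The gaps between peaks differed in what bordered them. In HoxA the longest interior gap, 24.4 kb at 52243531 to 52267917, separated the dense block from the lone peak beyond it (23.8 times the mean on one side and 1.18 on the other). Next were gaps of 16.4 kb at 52136561 to 52152980 and 14.9 kb at 52153391 to 52168289, between peaks of 6.66 to 11.2 times the mean. Gaps of 12.6 and 11.5 kb inside the dense block, at 52202449 to 52215000 and 52224143 to 52235613, had 38.9 to 41.2 times the mean on their borders. Over 76.3 kb of the HoxA window (44.9%), a base lay within 5 kb of a summit with at least 10 times the mean, and 87.4% of those bases were outside any peak. Absence of a peak there does not show absence of the mark.

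HoxC had no peak with at least 10 times the mean. In HoxB and HoxD, as in HoxA, interior gaps bordered on dense or on sparse signal. In HoxD the longest was 50.5 kb at 74543099 to 74593596, between peaks of 3.98 and 1.00 times the mean, followed by 16.3 kb at 74511595 to 74527871 (31.9 and 10.5 times) and 9.10 kb at 74501176 to 74510271 (38.3 and 31.8 times). The longest interior gaps of HoxC were 60.3 kb at 102829732 to 102890027, 24.5 kb at 102944414 to 102968912 and 16.5 kb at 102919203 to 102935664. Those of HoxB were 18.8 kb at 96143692 to 96162534, 18.5 kb at 96224283 to 96242770 and 18.3 kb at 96191043 to 96209381. With only peaks of −log10 q of at least 5, the longest interior gap was 16.5 kb in HoxC, 27.3 kb in HoxD, 32.0 kb in HoxB and 30.7 kb in HoxA. In HoxC and HoxD the outer peak bordering the longest gap (−log10 q 4.11 and 3.15) then dropped out. Its stretch was counted as window edge and did not become shorter. With all peaks counted, long stretches without a peak also lay at window edges, 82.4 and 45.5 kb in HoxB, 29.4 kb in HoxC, 27.7 kb in HoxA and 26.1 kb in HoxD. Over 28.2% of the HoxD window, 11.5% of the HoxB window and 0% of the HoxC window, a base lay within 5 kb of a summit with at least 10 times the mean. Where a gap is longer than 10 kb, its centre was in no measured window, 41.5 kb of it in the case of the longest HoxD gap.

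H3K27me3 peaks also lay beyond the windows. The 8 stretches of the same lengths on either side, 1.44 Mb in all, held 47 H3K27me3 peaks, between 2 and 14 each. The stretch below HoxB held 14 against 12 in HoxB, and the one above HoxC 10 against 10 in HoxC. Each of the others held fewer than its cluster. The densest 10 kb window of the 8 stretches reached 26.9 times the mean, in the stretch below HoxB. That is above the densest of HoxB itself (15.9).

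Few HA peaks fell in the clusters, and none without doxycycline. The +Myf6 HA libraries had 5 and 3 peaks in the windows (replicates 1 and 2; mean 4.0 ± 1.41 SD, n = 2) and the +Myf6+F/R/C HA libraries 10 and 7 (8.5 ± 2.12, n = 2). Both HA libraries without doxycycline had 0. Of the 6 IgG libraries, 5 had 0 and +Myf6 replicate 2 had 1. The induced HA libraries thus lay above every uninduced one, without overlap, as they did genome-wide, where they had 28436 to 38454 peaks against 2179 and 4230. At the density of the rest of the genome, the 2 uninduced lists would have placed 0.591 and 1.15 peaks in windows of this length, so a count of 0 there carries little weight.

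None of the comparisons of 2 libraries with 2 could pass 0.05 (exact permutation, two-sided, smallest p = 0.333). +Myf6 exceeded no doxycycline by 2.29 on the scale of log2(peaks + 1), and +Myf6+F/R/C by 3.23, each with exact permutation p = 0.333. Brought to the depth of the shallower uninduced library, both differences were 1.29, from 2 and 1 peaks with +Myf6 and 1 and 2 with the compounds. With only peaks of −log10 q of at least 5 they were 0.79 and 2.08 (exact permutation p = 1.0 and 0.333). With the compounds the count in the windows was higher than with +Myf6 alone by 0.94, and the libraries of these groups did not overlap there (exact permutation p = 0.333, n = 2 each). Genome-wide they did overlap, with 38454 and 32033 peaks with the compounds and 28436 and 35181 with +Myf6 alone. Depth moved with the count in the windows, being higher with the compounds at each replicate number (61.9 and 40.9 fragments per 10 kb against 42.4 and 30.6). At the lowest depth of these 4 libraries the counts were 7 and 7 against 4 and 3, a difference of 0.84. At the lower depth of the uninduced library, given above, the counts with and without the compounds overlapped.

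In the windows HA peaks outnumbered IgG peaks in induced cells, 6.25 ± 2.99 against 0.25 ± 0.5 (SD, n = 4 each), a difference of 2.51 on the log2(peaks + 1) scale (exact permutation p = 0.0286, two-sided, the smallest possible). Genome-wide these libraries had 28436 to 38454 and 437 to 1724 peaks, and at the density of the rest of the genome an IgG list would hold 0.118 to 0.467 peaks in the windows, so the excess is not particular to the clusters. The HA library was higher in 4 of 4 pairs from the same nuclei, but a test that keeps the pairs, by exact sign flips, cannot go under p = 0.125 and gave that value. The 4 HA lists kept 0 peaks in the windows when their pileups were brought to the depth of the shallowest IgG library, where the difference was -0.25. An excess of HA over IgG in the clusters was thus not detectable at that depth.

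**Figure D3:**
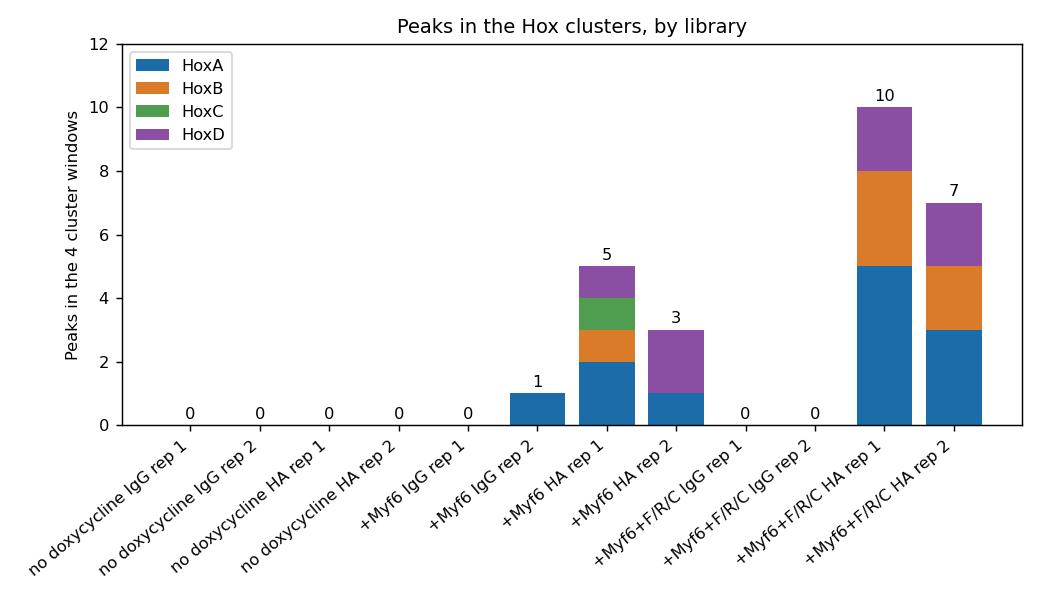
Number of peaks in the 4 Hox windows in each HA and IgG library, stacked by cluster. The induced HA libraries have 3 to 10 peaks, 1 IgG library has 1, and the remaining libraries have 0.

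The 26 HA and IgG peaks merged into 16 regions, 15 of them with an HA peak of induced cells and 1 with only the IgG peak. Both +Myf6 HA lists shared 2 regions and both +Myf6+F/R/C HA lists 5, none with a control peak. Over all 71864 regions, 17.5% were such sites of +Myf6 and 21.0% of +Myf6+F/R/C, so 2 and 5 of 16 regions are near the background. With only HA peaks of −log10 q of at least 5 the sites fell to 0 and 1, and at 10 to 0 and 0, so the regions described next rest mostly on weak calls. All 4 induced lists shared 2 regions (10.7% of all regions). Another 2 regions were in both libraries with the compounds and in neither with +Myf6 alone (3.91% of all regions), and 0 showed the reverse (2.24%).

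The strongest HA region lay near the anterior end of the HoxA window, at 52127571 to 52127996 on chromosome 6. It had folds of 7.16 and 5.32 with +Myf6 (14 and 8 fragments at the summit) and 8.95 and 7.81 with +Myf6+F/R/C (26 and 15 fragments). Both +Myf6+F/R/C folds were above both +Myf6 folds and at percentiles 97.1 and 95.1 of their own lists, while those with +Myf6 were at 88.8 and 54.8. The fold adds a constant to pileup and background, so with so few fragments it rises with depth at equal enrichment. Depth was higher with the compounds at each replicate number (61.9 and 40.9 fragments per 10 kb against 42.4 and 30.6). Its part in the difference of folds was not tested. The region overlapped the first H3K27me3 peak of the cluster, at 52127725 to 52127947, a short peak of 223 bp with fold 7.60 whose 10 kb held only 1.23 times the mean. Scaled by background to the uninduced HA libraries, the induced pileups would be 7.57 to 11.9 and 4.16 to 6.54 fragments, against 5 and 4 needed for a peak at the mean background. The background at this region was 1.41 to 1.99 times the mean in the induced lists, and a higher background raises the pileup needed, so whether a signal of that strength would have been called without doxycycline is not settled.

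The region on chromosome 2 at 74570684 to 74571065, in the sparsely marked anterior part of the HoxD window, was also in all 4 induced lists. Its folds were 5.33 and 3.81 with +Myf6 (10 and 6 fragments) and 4.25 and 5.41 with +Myf6+F/R/C (11 and 14 fragments), so the treatments overlapped. It sat inside the gap of 50.5 kb, 22532 bp from the nearest H3K27me3 peak, the farthest of all HA regions of the clusters. Here the scaled pileups were 5.04 to 9.26 and 2.77 to 5.08, and 3 of the 4 lists were under the 4 fragments that uninduced replicate 2 needed at the mean background.

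In HoxB the region at 96159832 to 96160466 was in 3 induced lists, with a fold of 5.53 in +Myf6 replicate 1 and 5.11 and 4.34 with +Myf6+F/R/C. It lay 2069 bp from the nearest H3K27me3 peak, in the gap of 18.8 kb. The 2 regions in both lists with the compounds and in neither +Myf6 list lay in HoxA. At 52137756 to 52138380 the folds were 3.64 and 4.20 (19 and 11 fragments), and at 52154036 to 52154514 they were 3.70 and 4.33 (17 and 11 fragments). They lay 1196 and 646 bp from an H3K27me3 peak, in the gaps of 16.4 and 14.9 kb. Their HA background was 2.52 to 4.42 times the mean of the library, and their folds were at percentiles 6.12 to 23.1 of their lists.

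**Figure D4:**
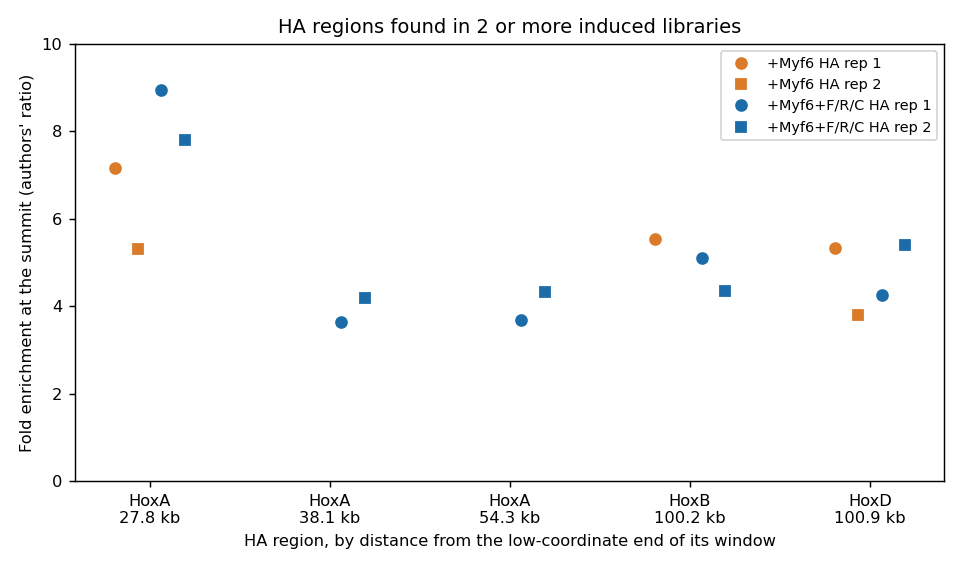
Fold enrichment (the authors' ratio) in each induced HA library at the 5 regions found in 2 or more of them, named by cluster and distance from the low-coordinate end of the window; a missing point means no peak in that list. The HoxA region at 27.8 kb is the highest in each of the 4 libraries, and 2 HoxA regions have points with +Myf6+F/R/C only.

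The remaining 10 HA regions were each in a single list, 5 of them in +Myf6+F/R/C replicate 1, the deepest library. Their folds ran from 3.29 to 5.51 and their −log10 q from 1.72 to 5.30. The single HA region of HoxC, at 102940962 to 102941244 with fold 3.75 in +Myf6 replicate 1, was among them. Over all 25 HA peaks the median fold was 4.39, and 15 were under the median fold of their own list.

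The IgG peak was in HoxA at 52181152 to 52181414, with fold 6.12 and 8 fragments at the summit in +Myf6 replicate 2. It lay inside the H3K27me3 peak at 52180631 to 52181433. No HA list had a peak there. Over all regions 4.39% had an IgG peak.

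HA peaks per Mb were below the rest of the genome in 4 of 4 induced libraries, which so few libraries cannot test at 0.05. The density in the windows was 6.94 and 4.17 peaks per Mb with +Myf6 and 13.9 and 9.72 with +Myf6+F/R/C, against 10.7, 13.2, 14.5 and 12.1 in the rest of the genome. In peaks these differences were small. The windows held 5, 3, 10 and 7, and at the density of the rest they would have held 7.71, 9.53, 10.4 and 8.68. The ratios of the densities were 0.649, 0.315, 0.960 and 0.806, with a mean of -0.67 ± 0.71 on the log2 scale (SD, n = 4; exact sign flips p = 0.125, two-sided, the smallest possible). Against the stretches on either side the difference was wider, with 22.9, 20.8, 31.2 and 24.3 HA peaks per Mb there and a mean log2 ratio of -1.63 (exact sign flips p = 0.125, n = 4). The comparison with these stretches was added after the values were seen.

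Few H3K27me3 peaks of the clusters overlapped an HA peak. The mark was measured only with the compounds, so the overlap for +Myf6 crosses treatments. With +Myf6, 2 and 1 of the 55 overlapped an HA peak (3.64 and 1.82%), and with +Myf6+F/R/C 1 and 1 (1.82% each, exact Clopper-Pearson 95% interval 0.0460 to 9.72%). In the rest of the genome the same shares were 24.2, 31.3, 31.8 and 30.5%. Counting any induced HA list, 2 of 55 overlapped, against 51.7% of all H3K27me3 peaks. Among peaks whose 10 kb held at least 10 times the mean, 0 of 30 overlapped in the clusters (interval 0 to 11.6%), against 20.2 to 28.5% of 6814 elsewhere. In the bins from 10 to 50 times the mean the cluster peaks were also narrower and of lower fold than those elsewhere. Median widths were 568.5 and 1632.5 bp at 10 to 20 times and 275 and 1252 bp at 20 to 30 times. At 30 to 50 times they were 455 and 802 bp. The mix of densities differed too. The bin of 10 to 20 times held 8 cluster peaks and 5258 elsewhere, that of 30 to 50 times 18 and 327. The part of width, fold and density in the difference was not tested. Peaks of 1 window share a library and a domain, so the intervals cover counting error only. No test was made over the peaks, which are not replicates.

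**Figure D5:**
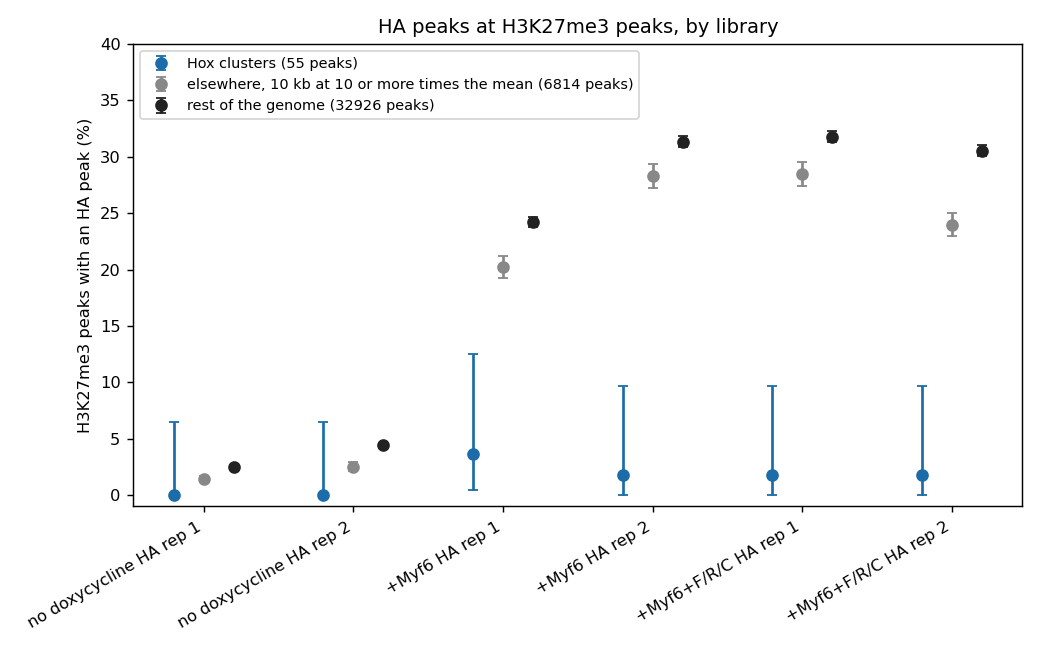
Share of H3K27me3 peaks that overlap an HA peak in each HA library (percent), in the Hox clusters, at peaks elsewhere whose 10 kb held at least 10 times the mean, and in the rest of the genome; bars are exact 95% intervals for counting error. In the 4 induced libraries the clusters stay at 1.82 to 3.64%, below both other sets, while without doxycycline the shares overlap.

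From the side of the HA regions, 2 of 15 overlapped an H3K27me3 peak (13.3%, interval 1.66 to 40.5%), against 26.7% of all regions with an induced HA peak. The other 13 lay 646 to 22532 bp from one, with a median of 4660 bp. Within 5 kb of a summit with at least 10 times the mean, which is 20.1% of the windows, lay 1 of the 15, and within 5 kb of one with at least 20 times, 12.7% of the windows, lay 0. All 6 HA regions of HoxA lay between 27.8 and 74.4 kb from the window's low end, which is its anterior end, and outside the dense posterior block.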

How the data were processed

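Per the submitters' processing notes, MACS2, deepTools and DiffBind were used on build GRCm39; for versions, aligner and control the sources used here give nothing. The deposited lists hold narrow peaks of each library, with a fold enrichment (ratio) and a −log10 p and −log10 q per summit by the authors' peak caller. Peaks on chromosomes 1 to 19, X and Y were used. Summit pileups and backgrounds were recovered by matching fold and −log10 p to whole pileups (within 0.002 for at least 99.9% of peaks in every list; 100% of 4041 simulated peaks recovered). Depth is the lowest background as fragments per 10 kb. Regions merge peaks of the 12 HA and IgG lists sharing 1 bp. Sites have a peak in both HA lists of a treatment and none in 8 control lists. Counts were compared with exact permutation tests on log2(peaks + 1), and densities with exact sign flips. HA and IgG libraries of a treatment and number pair by design: per the labels' protocols, 1 batch of nuclei was divided between them. All regions in both HA lists, all regions with control peaks, the highest-fold and 3 widest H3K27me3 peaks and the 3 longest interior gaps of each cluster were named. Because the annotation was of GRCm38.p6, distances to gene starts and counts over other gene lists (Polycomb subunits, Hox cofactors, other homeobox genes, neighbouring genes) were not analysed here, and gaps were measured between peaks rather than gene starts. Windows, members and lists were chosen with earlier results of these data known. Analyses used Python 3.11.15, numpy 2.4.6, pandas 2.3.3, scipy 1.17.1 and matplotlib 3.10.9.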

Additional observations from a re-analysis of the deposited data

How the results depend on the processing

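Values follow the thresholds on sparse lists. With H3K27me3 peaks at −log10 q of at least 5 and 10, coverage was 5.30 and 3.38% in HoxA, 3.54 and 2.11% in HoxB, 3.02 and 0.657% in HoxC, and 4.47 and 1.87% in HoxD. The longest interior gaps at these thresholds were 30.7 and 31.7 kb in HoxA, 32.0 and 57.4 kb in HoxB, and 27.3 kb at both in HoxD; in HoxC the gap was 16.5 kb at 5, and at 10 too few peaks were left. Without peaks narrower than 300 bp they were 16.4, 32.0 and 16.3 kb in HoxA, HoxB and HoxD. Where a longest gap became shorter under a stricter setting, an outer peak bordering it had dropped out. The stretch without a peak was then counted as window edge and was not itself shorter. Sites fell to 0 and 0 with +Myf6 and 1 and 0 with +Myf6+F/R/C when HA peaks needed −log10 q of at least 5 and 10, and the share of HA regions with H3K27me3 was 100% of the 1 region left at 10. HA against IgG was 1.44 and 0.25 at these thresholds (exact permutation p = 0.143 and 1.0), 2.51 with the replicate block (exact sign flips p = 0.125) and -0.25 at the lowest depth, where pileups were rounded down. For the other comparisons the replicate block gave 2.29, 3.23 and 0.94 with exact sign flips p = 0.5, the smallest that 2 pairs allow. Their numbers share only a prefix in some library names, and over regions the difference between replicates had r = 0.11 between the induced groups, as a description.

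Leaving out 1 library gave 2.0 to 2.58 for +Myf6 and 3.0 to 3.46 for +Myf6+F/R/C against no doxycycline, 0.64 to 1.23 between these, 2.28 to 2.76 for HA against IgG, and -0.87 to -0.33 for HA density. HA and IgG without doxycycline, both at 0, could not differ. The density ratio could not be had at −log10 q of at least 5 or 10, where 1 and 3 libraries had no peak in the windows; within H3K27me3 peaks it was -3.23. Coverage between gene starts and marks at gene starts were not run, for want of annotation of the build.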
